A study of Mus musculus with 6 samples.

Results

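The collagen genes were taken as all protein-coding rows of the deposited mouse gene table whose symbol reads Col, a number, the letter a and a number. This rule, which used no measured value, found 44 of the 54532 genes listed. The 6 RNA sequencing libraries came from in vitro co-cultures of bone marrow-derived macrophages (BMDMs) with ID8 cells, a mouse ovarian cancer line. Before co-culture, the ID8 cells of 3 libraries were exposed to 40 µM of the DNA-crosslinking drug cisplatin, and those of the other 3 to phosphate-buffered saline (PBS). These are called the cisplatin and the PBS libraries. The marrow came from C57BL/6 mice and both groups were co-cultured with ID8 cells. The study's methods say that the monocytes were collected after the co-culture and that the design included biological replicates. How the cells were separated from ID8 cells, and whether the replicates were separate cultures or mice, is not given there. The p-values below measure the spread between these libraries, which may in part be technical.

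Values are FPKM, fragments per kilobase of gene length scaled to library depth, so that levels of different genes can be set side by side. The reads recovered from them ranged from 15776238 to 17924686 per library. Genes with at least 1 FPKM in at least 3 libraries were tested by limma on log2(FPKM + 1). A gene was called upregulated or downregulated at a Benjamini-Hochberg adjusted p under 0.05 over all 13441 tested genes together with a log2 fold change of at least 1. Fold changes are cisplatin against PBS.

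Collagens are secreted proteins in which chains wind around each other in a triple helix. The helix needs a glycine at a regular spacing of 3 residues. Fibrillar collagens (types I, II, III, V, XI and others) form banded fibrils with a long unbroken helix. Type IV chains form the sheet-like network of basement membranes, and their helix is broken in many places. Type VI forms beaded filaments, fibril-associated collagens bind to the surface of fibrils, and transmembrane collagens stay anchored in the cell membrane. Epithelial and mesothelial cells lay down type IV collagen, whereas type I is chiefly a product of fibroblasts and bone-forming cells.

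The repeat can be read in the coding sequence, and 2 stretches of 18 codons from GENCODE M21 transcripts are shown. They were chosen because the summed type IV level differed more between the groups than the summed fibrillar level. Capitals mark glycine codons, those that begin with GG.
Col1a1, codons 675 to 692: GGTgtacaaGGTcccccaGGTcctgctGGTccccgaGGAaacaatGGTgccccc
Col4a5, codons 947 to 964: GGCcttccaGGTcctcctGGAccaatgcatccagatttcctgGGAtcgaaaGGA

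In the Col1a1 stretch glycine codons recur at a fixed spacing of 3 codons, and in the Col4a5 stretch this spacing is lost between the 3rd and the 4th glycine codon. Over the whole coding sequence, the longest unbroken run of the repeat held 338 glycines in Col1a1, 338 in Col5a1 and 337 in Col5a3. In the type IV genes the longest run held 40 in Col4a1, 42 in Col4a5, 45 in Col4a6 and 66 in Col4a2. Counting runs of at least 3 glycines, the repeat was split into 23 runs in Col4a1 and Col4a5 and into 24 in Col4a2 and Col4a6, against 2 in Col1a1. Col16a1, a fibril-associated chain, held 23 runs with a longest of 52. Col6a1 held 3 runs that took up 32.2% of its codons.

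Most collagen genes were expressed at low levels in these libraries. Of the 44 members, 9 passed the filter and 34 never reached 1 FPKM in any library. The remaining member, Col11a2, reached 1 FPKM in the cisplatin replicates 2 and 3 and stood just outside the filter, with a mean of 0.749 FPKM over the 6 libraries. Col5a3 stood just inside it, passing through the 3 cisplatin libraries and PBS replicate 3. Of the 9, Col4a5, Col4a2, Col4a1, Col1a1 and Col5a1 were above 1 FPKM in every library. Col4a6, Col6a1 and Col16a1 passed through the PBS libraries alone, so they had to differ between the groups, and no weight is put on how many of the 9 differed. No member was at 0 in all libraries, although 15 were at 0 in at least 1.

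The summed collagen level was lower with cisplatin, chiefly through 4 type IV genes. The summed level of the 44 genes was 132, 127 and 135 FPKM in PBS replicates 1, 2 and 3 and 30.7, 32.5 and 32.6 FPKM in the cisplatin replicates. The groups lay far apart, with a mean of 131.6 ± 4.05 FPKM for PBS and 31.9 ± 1.10 FPKM for cisplatin (SD, n = 3 each), a 4.12-fold difference. Without Col4a1, Col4a2, Col4a5 and Col4a6, the other 40 genes summed to 21.8 ± 1.99 FPKM with PBS and 14.2 ± 0.724 FPKM with cisplatin, a 1.54-fold difference. Collagen reads made up 0.0868% to 0.0923% of all reads in the PBS libraries and 0.0231% to 0.0245% in the cisplatin libraries. In these bulk samples, fewer cells of a type and less RNA per cell cannot be told apart.

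The difference was not of the same size in every class of chain. The summed level of the 6 type IV genes was 109.9 ± 2.30 FPKM with PBS and 17.9 ± 0.304 FPKM with cisplatin, 6.14-fold lower. That of the 6 beaded filament genes went from 6.30 ± 0.829 to 0.736 ± 0.0626 FPKM, 8.56-fold lower, and that of the 9 fibril-associated genes from 6.13 ± 0.687 to 2.42 ± 0.318 FPKM, 2.54-fold lower. Col16a1 carried most of the last difference, since the other 8 fibril-associated genes summed to 2.02 and 1.77 FPKM, with overlapping groups. The 11 fibrillar genes summed to 7.54 ± 0.714 FPKM with PBS and 8.54 ± 0.651 FPKM with cisplatin, and the ranges of the groups overlapped (all SD, n = 3 each). Without Col5a3 the other 10 fibrillar genes summed to 6.61 ± 0.445 FPKM with PBS and 5.28 ± 0.385 FPKM with cisplatin, and the groups did not overlap. As a result, type IV genes took 83.5% ± 1.08 of the summed level with PBS and 56.0% ± 1.01 with cisplatin, while the share of fibrillar genes went from 5.72% ± 0.368 to 26.7% ± 1.45. The remaining 5 classes were low and summed higher on average with cisplatin, from 1.21-fold for the multiplexins to 2.47-fold for the anchoring fibril gene, and the transmembrane class (1.39-fold) lay between. In the multiplexin, anchoring fibril and transmembrane classes the groups did not overlap. Scaled by the Y-linked genes described below, the fibrillar sum was 1.77-fold, the multiplexin sum 1.65-fold and the transmembrane sum 1.44-fold lower with cisplatin, the short-chain and other sums were lower as well, and the anchoring fibril sum stayed 1.24-fold higher. These sums are descriptions and were not tested. The bar charts of the summed levels show both the drop and the changed make-up.

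**Figure D1:**
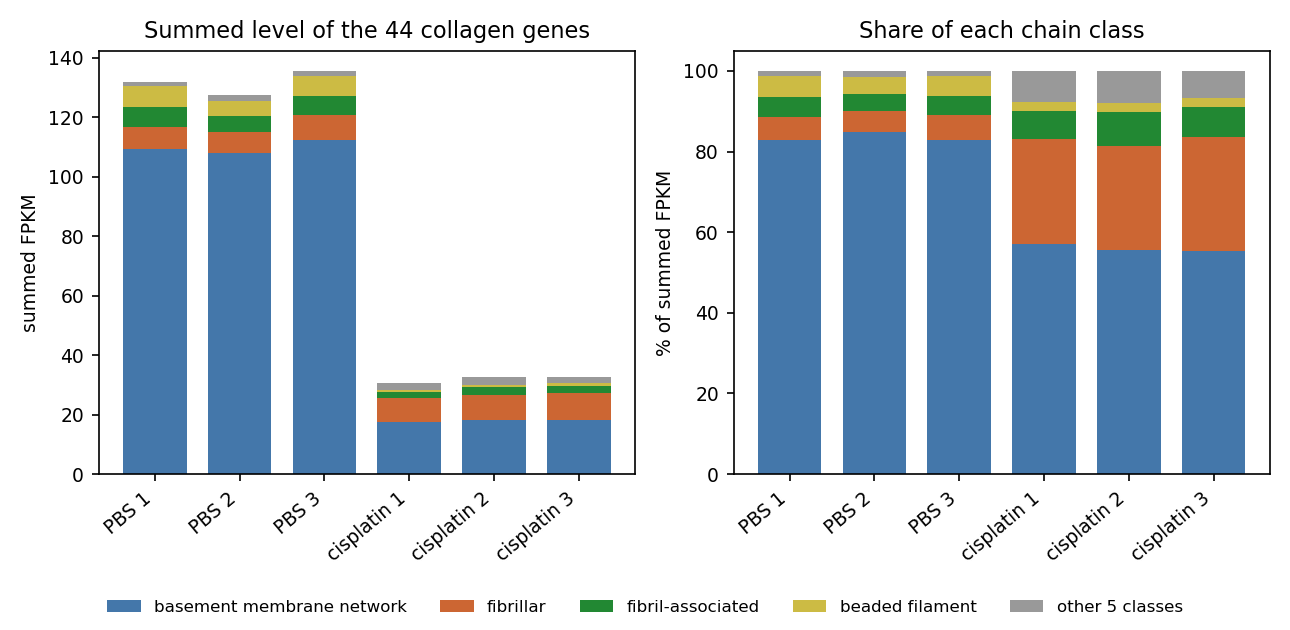
Summed FPKM of the 44 collagen genes in each of the 6 libraries (left) and the share of each chain class in that sum, in percent (right), with bar segments coloured by class. The PBS bars reach 127 to 135 FPKM and the cisplatin bars 30.7 to 32.6 FPKM, and the type IV (basement membrane network) segment shrinks from 83.5% to 56.0% of the sum on average while the fibrillar segment grows from 5.72% to 26.7%.

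Among the 9 tested members, 6 were downregulated and 1 was upregulated with cisplatin. Over all tested genes, 11.3% were downregulated and 4.67% upregulated. The median log2 fold change was -1.89 over the 9 members and -0.0011 over all tested genes, and the 3 members that passed through PBS alone enter that median. Without any 1 of the PBS libraries these 3 missed the filter, which left 3 downregulated members and a median of -1.24 to -1.22, and with no filter the median was 0.0057. Scaling the libraries by 4 Y-linked genes, which the female-derived ID8 line lacks, moved the median over all tested genes to -0.83, with 85 called higher and 5181 called lower in place of 628 and 1514. Under that scaling 8 members were lower and 0 higher, and at an adjusted p alone 1 member, Col5a3, remained higher.

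The type IV genes held the 4 highest collagen levels with PBS. Col4a5 encodes a chain best known from the kidney, where its mutations cause Alport syndrome (ENSMUSG00000031274, chromosome X, 141475385 to 141689234, mm10). It measured 34.8, 38.4 and 35.6 FPKM in PBS replicates 1, 2 and 3 and 3.18, 3.64 and 3.07 FPKM in the cisplatin replicates. It was the highest collagen gene in each PBS library, and its means differed 11.0-fold (log2 fold change -3.12, SE 0.066, adjusted p = 1.05e-07).

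Col4a6, its neighbour, encodes a chain found with Col4a5 in some epithelial and smooth muscle basement membranes (ENSMUSG00000031273, chromosome X, 141165403 to 141474076). It measured 13.9, 13.7 and 14.4 FPKM with PBS and 0.701, 0.603 and 0.744 FPKM with cisplatin. All 3 cisplatin libraries fell below the level of the filter. The means differed 20.5-fold, which the log2(FPKM + 1) scale understates (log2 fold change -3.16, SE 0.060, adjusted p = 7.99e-08).

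Col4a1 and Col4a2 encode the chains of the ubiquitous basement membrane network, which assembles as 2 copies of the former with 1 of the latter. Col4a1 (ENSMUSG00000031502, chromosome 8, 11198423 to 11312826) measured 28.4, 25.6 and 29.5 FPKM with PBS and 6.16, 6.14 and 5.65 FPKM with cisplatin. The groups differed 4.65-fold (log2 fold change -2.05, SE 0.064, adjusted p = 4.46e-07). Col4a2 (ENSMUSG00000031503, chromosome 8, 11312805 to 11449287) measured 32.1, 30.2 and 32.8 FPKM with PBS and 7.31, 7.63 and 8.52 FPKM with cisplatin, a 4.05-fold difference (log2 fold change -1.89, SE 0.063, adjusted p = 5.70e-07).

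The order of the 4 type IV genes was therefore not the same in the groups. With PBS the means ran Col4a5, Col4a2, Col4a1, Col4a6, and with cisplatin Col4a2, Col4a1, Col4a5, Col4a6. Col4a1 and Col4a2 kept close to each other. The ratio of Col4a2 to Col4a1 within a library was 1.13, 1.18 and 1.11 with PBS and 1.19, 1.24 and 1.51 with cisplatin. These ranges did not overlap (exact permutation test over libraries, two-sided, p = 0.1, adjusted p = 0.1 with 3 ratios computed), and 0.1 is the smallest p that 3 libraries against 3 can give. For 2 further ratios, chosen after the values were seen, the distance was wider. Col4a5 stood at 1.23, 1.5 and 1.21 times the level of Col4a1 with PBS and at 0.516, 0.593 and 0.544 times with cisplatin. Col4a6 stood at 0.398, 0.358 and 0.405 times the level of Col4a5 with PBS and at 0.221, 0.166 and 0.242 times with cisplatin. No weight is put on a test of these ratios. On the log2(FPKM + 1) scale the change in the ratio of Col4a6 to Col4a5 was -0.040, against -0.90 on the log2 scale without the pseudocount. Col4a6 lay below 1 FPKM in the cisplatin libraries, where adding 1 compresses differences. With a pseudocount of 0.1 the log2 fold changes were -4.18 for Col4a6 and -3.42 for Col4a5. The other type IV genes, Col4a3 and Col4a4, which form the kidney network with Col4a5, stayed at or below 0.106 FPKM in every library.

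These 4 genes also lie in 2 head-to-head pairs, and their start regions are shown because the members of a pair moved in the same direction. In the table's annotation Col4a1 and Col4a2 run in opposite directions and their first 22 bases overlap, and 1308 bases separate Col4a6 from Col4a5. Whether reads were counted by strand is not stated, so reads from the 22 shared bases cannot be assigned. The RefSeq windows of GRCm38.p6 hold 250 bases before and 50 from each gene's start, and were found for 35 of the 44 members. Capitals mark CCAAT and GGGCGG on either strand. The Col4a2 window also contains the start of Col4a1, read on the opposite strand. Col5a3 is shown beside them as the member that was upregulated.
Col4a2, chr8:11312555-11312854, + strand: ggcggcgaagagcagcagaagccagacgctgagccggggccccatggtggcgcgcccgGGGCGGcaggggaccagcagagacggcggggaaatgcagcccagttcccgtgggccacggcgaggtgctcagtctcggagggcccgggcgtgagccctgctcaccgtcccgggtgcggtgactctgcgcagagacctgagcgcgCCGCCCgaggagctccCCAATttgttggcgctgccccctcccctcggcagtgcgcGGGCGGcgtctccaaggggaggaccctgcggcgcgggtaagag
Col4a5, chrX:141475169-141475468, + strand: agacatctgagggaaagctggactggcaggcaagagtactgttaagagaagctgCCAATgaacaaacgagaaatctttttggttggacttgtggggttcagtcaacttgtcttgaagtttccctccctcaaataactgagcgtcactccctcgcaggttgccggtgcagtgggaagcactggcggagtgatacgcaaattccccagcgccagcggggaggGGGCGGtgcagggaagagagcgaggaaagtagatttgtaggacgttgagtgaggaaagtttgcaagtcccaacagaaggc
Col4a6, chrX:141474027-141474326, - strand: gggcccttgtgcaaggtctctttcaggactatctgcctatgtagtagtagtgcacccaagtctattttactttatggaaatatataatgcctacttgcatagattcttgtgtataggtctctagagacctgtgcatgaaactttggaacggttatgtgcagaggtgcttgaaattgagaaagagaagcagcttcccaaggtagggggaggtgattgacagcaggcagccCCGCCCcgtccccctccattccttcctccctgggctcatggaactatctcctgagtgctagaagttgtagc
Col5a3, chr9:20815018-20815317, - strand: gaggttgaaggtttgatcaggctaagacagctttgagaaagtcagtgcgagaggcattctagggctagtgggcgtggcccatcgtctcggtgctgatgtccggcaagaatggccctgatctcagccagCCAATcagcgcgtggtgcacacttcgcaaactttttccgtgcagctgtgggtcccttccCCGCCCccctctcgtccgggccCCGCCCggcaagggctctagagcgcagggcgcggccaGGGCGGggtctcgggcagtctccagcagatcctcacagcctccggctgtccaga

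The Col4a2 window was rich in G and C (73.7%), that of Col5a3 less so (63.3%), and those of Col4a5 (52.7%) and Col4a6 (48.3%) least of the 4. GGGCGG occurred in the windows of all 5 of these genes with Col4a1 included, and of 22 of the 35 members with a window, against 35.6% of all 32817 RefSeq windows of this length. CCAAT occurred in 13 of the 35 members, among them Col4a1, Col4a2, Col4a5, Col5a3 and Col16a1, against 37.4% of all windows. TATAAA was found in 5 of the 35 and in none of the 8 tested members with a window, against 13.6% of all windows. TGACTCA was found in Col6a1 alone, against 5.2% of all windows. Counted by window, the 35 members had 38, of which 23 held GGGCGG, 13 CCAAT, 5 TATAAA and 1 TGACTCA. All 4 motifs were searched on both strands, and a match or its absence says nothing of binding. The windows of the upregulated Col5a3 and the downregulated Col4a2 both held CCAAT and GGGCGG.

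Outside type IV, 2 more members were downregulated. Col6a1, a chain of the beaded filaments found around most cells (ENSMUSG00000001119, chromosome 10, 76708792 to 76726168), measured 6.45, 4.72 and 6.11 FPKM with PBS and 0.577, 0.723 and 0.622 FPKM with cisplatin. The means differed 8.99-fold (log2 fold change -2.03, SE 0.11, adjusted p = 6.53e-06). Col16a1, a fibril-associated chain (ENSMUSG00000040690, chromosome 4, 130047840 to 130099283), measured 4.51, 3.36 and 4.47 FPKM with PBS and 0.575, 0.812 and 0.556 FPKM with cisplatin, a 6.35-fold difference (log2 fold change -1.63, SE 0.12, adjusted p = 2.68e-05). In both genes PBS replicate 2 was the lowest of its group. The separation of the groups at 1 FPKM was fixed by the filter.

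The 3 tested fibrillar genes went different ways. Col5a3 encodes the least widespread chain of type V collagen, which regulates fibril assembly (ENSMUSG00000004098, chromosome 9, 20770050 to 20815067). It measured 0.830, 0.707 and 1.26 FPKM with PBS and 3.06, 3.17 and 3.57 FPKM with cisplatin. It was upregulated 3.50-fold in its means (log2 fold change 1.15, SE 0.12, adjusted p = 1.60e-04). Scaled by the Y-linked genes its log2 fold change was 0.52 (adjusted p = 0.0155) and it was not called.

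Col5a1, the main type V chain (ENSMUSG00000026837, chromosome 2, 27886425 to 28039514), measured 2.46, 2.67 and 2.51 FPKM with PBS and 1.48, 1.31 and 1.42 FPKM with cisplatin. The change, -0.56 on the log2 scale (SE 0.075, adjusted p = 4.81e-04), fell short of the fold threshold. Col1a1, the major chain of type I collagen (ENSMUSG00000001506, chromosome 11, 94936224 to 94953042), measured 3.23, 2.52 and 3.16 FPKM with PBS and 1.89, 1.75 and 1.96 FPKM with cisplatin, and its change of -0.47 on the log2 scale (SE 0.093, adjusted p = 0.00361) also fell short. Scaled by the Y-linked genes, Col5a1 (-1.21) and Col1a1 (-1.16) passed both thresholds. On either scaling their groups stayed apart by less than those of the type IV genes.

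**Figure D2:**
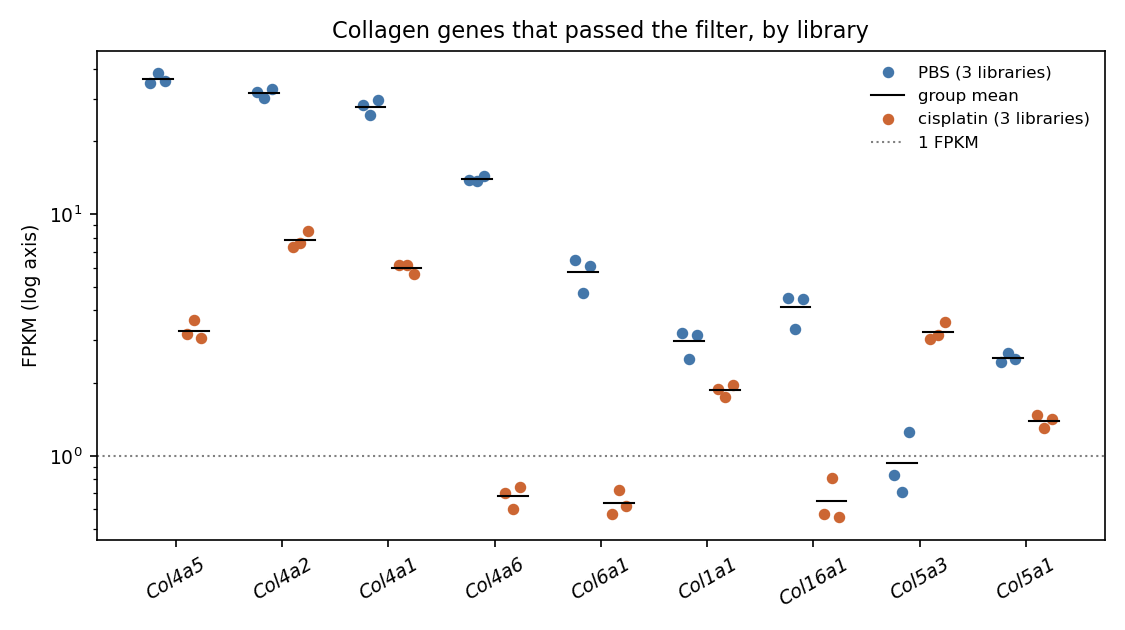
FPKM (log axis) of the 9 collagen genes that passed the filter, with 1 point per library, 3 PBS and 3 cisplatin libraries for each gene, black lines at the group means and a dotted line at 1 FPKM. The means of the 4 type IV genes lie 4.05-fold to 20.5-fold lower with cisplatin, and Col5a3 is the gene whose cisplatin points lie above its PBS points.

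Chains that are known to assemble together were often measured at very unequal levels. Type I collagen is usually made of Col1a1 and Col1a2 chains, yet Col1a2 had 12 reads in all over the PBS libraries and 21 over the cisplatin libraries, while Col1a1 had 955 and 612. Per length, the mean of Col1a2 was 0.633% of that of Col1a1 with PBS and 1.83% with cisplatin. These percentages depend on the deposited gene lengths, 12426 bases for Col1a2 and 6563 for Col1a1. Col3a1, which accompanies type I in most fibroblast matrices, stood at 1.44% and 2.08% of Col1a1. Col5a2, the usual partner of Col5a1, stood at 3.36% of it with PBS and 7.28% with cisplatin. In the beaded filament class, Col6a2 stood at 3.72% and 1.88% of Col6a1, and Col6a3 at 5.34% and 5.72%. By contrast, Col4a2 and Col4a1 were at similar levels in every library. In the ratios of the other pairs the low chain rested on between 5 and 178 reads per group, and they were not tested.

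The spread between libraries was often larger than counting error. Col4a5 rested on 3709 to 4143 reads in each PBS library and on 341 to 402 in each cisplatin library, and the coefficient of variation between libraries was 5.09% and 9.22%, where counting alone gives 1.59% and 5.21%. For Col6a1, with 43 to 52 reads in each cisplatin library, counting alone gives 14.6% and the libraries varied by 11.7%. The most variable tested value was that of Col5a3 with PBS (31.1%, counting alone 9.87%). The counting figures leave out amplification, since reads that share a molecule were not told apart.

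To describe members that missed the filter, the recovered reads were also fitted by limma voom, with every gene of a mean of at least 10 reads over the 6 libraries. This setting was chosen after the data were seen. It took in 23 of the 44 members, of which 11 were called lower and 4 higher. Col6a2, Col6a3, Col14a1 and Col17a1 averaged under 10 reads with cisplatin, and Col23a1 under 10 with PBS. These genes passed through the other group alone, so their means had to differ, and no weight is put on the counts. Of all 15494 genes in that fit, 15.5% were lower and 10.7% higher. The median log2 fold change was -0.77 over the 23 members and 0.077 over all genes. In 21 of the 23 the 3 libraries of each group did not overlap, against 71.3% of all genes, and the exceptions were Col9a3 and Col5a2. The genes that passed through 1 group alone are among the 21.

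All 3 type VI genes in this fit were lower, of which Col6a2 and Col6a3 entered it through the PBS libraries alone. Col6a2 had 24, 29 and 33 reads with PBS and 1, 0 and 4 with cisplatin (log2 fold change -4.21, SE 0.62). Col6a3 had 53, 71 and 54 reads with PBS and 11, 6 and 5 with cisplatin (log2 fold change -2.93, SE 0.42). With Col6a1 at -3.07 on the same scale, the 3 chains that form the common type VI filament moved in the same direction.

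Among fibril-associated chains, Col14a1 had 33, 18 and 16 reads with PBS and 6, 9 and 7 with cisplatin (log2 fold change -1.46, SE 0.45). Col20a1 had 53, 42 and 35 reads with PBS and 15, 10 and 16 with cisplatin (-1.59, SE 0.34). Col20a1 overlaps 9230112E08Rik on the same strand, so its reads are uncertain. Col12a1 (0.48, SE 0.14) was not called, and Col9a3 had the same total of 118 reads in each group. Col17a1, a transmembrane collagen of the hemidesmosomes that tie epithelia to their basement membrane, had 26, 38 and 40 reads with PBS and 9, 9 and 4 with cisplatin and was called lower (-2.15, SE 0.45).

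The 4 genes called higher were Col23a1, Col5a3, Col7a1 and Col11a2. Col23a1, another transmembrane collagen, had 14, 10 and 4 reads with PBS and 50, 69 and 48 with cisplatin (log2 fold change 2.68, SE 0.42). Col7a1, the anchoring fibril collagen of the skin, had 13, 12 and 12 reads with PBS and 35, 23 and 36 with cisplatin (1.34, SE 0.36). Col11a2, a chain of cartilage fibrils, had 55, 37 and 66 reads with PBS and 82, 135 and 131 with cisplatin (1.18, SE 0.25). Scaled by the Y-linked genes, the ratio of the cisplatin mean to the PBS mean went from 5.94 to 3.02 for Col23a1, from 2.47 to 1.24 for Col7a1 and from 2.15 to 1.07 for Col11a2. The multiplexin Col15a1 (0.97, SE 0.21) and the fibrillar Col27a1 (0.85, SE 0.18) fell short of the fold threshold. The multiplexin Col18a1 (-0.36, SE 0.23), whose C-terminal fragment is endostatin, overlaps Slc19a1 on the opposite strand and was not called, and neither was Col5a2 (0.50, SE 0.46). The adjusted p of the 15 called genes was at most 0.00701. The plot of voom fold changes orders the 23 genes.

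**Figure D3:**
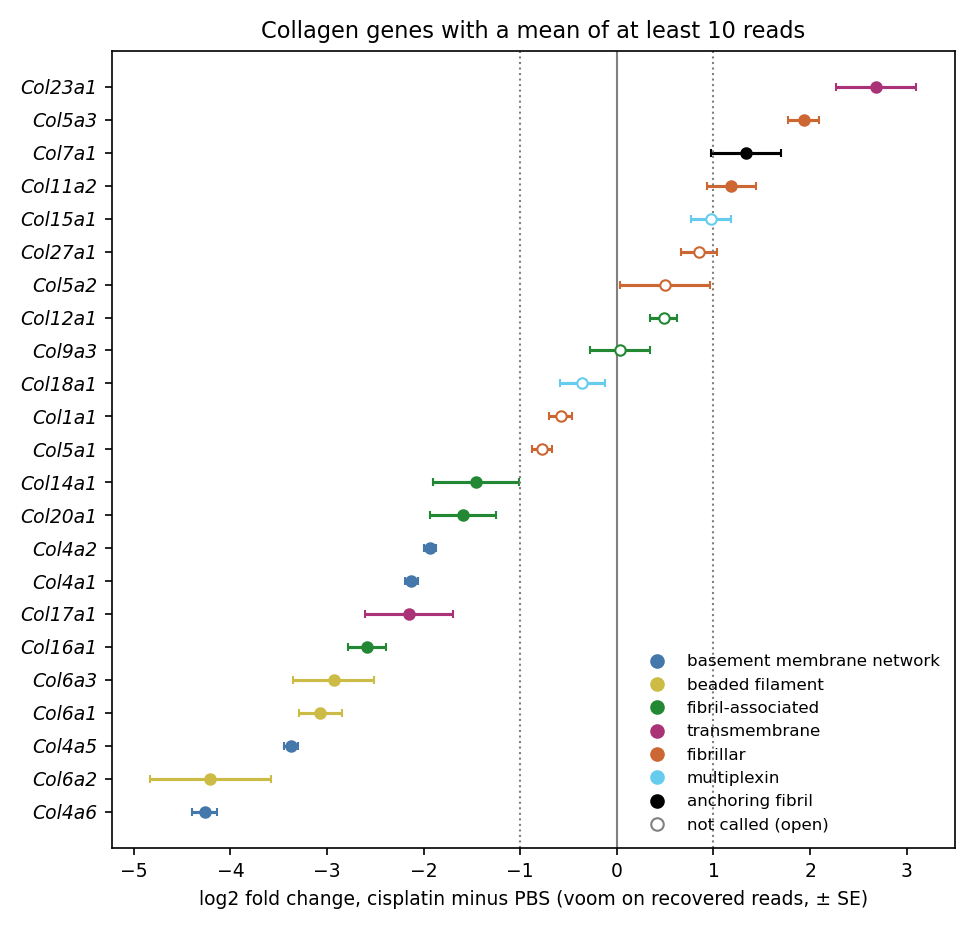
Log2 fold change (cisplatin minus PBS, limma voom on recovered reads) with its SE for the 23 collagen genes with a mean of at least 10 reads, coloured by chain class, filled where called and open where not, with dotted lines at -1 and 1. All type IV and type VI genes shown lie below -1, from -4.27 for Col4a6 to -1.93 for Col4a2, the fibrillar genes lie between -0.77 and 1.93, and Col23a1 lies highest at 2.68.

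The other 21 members averaged under 10 reads and were not fitted. They include Col1a2, Col2a1, Col3a1, Col10a1 and Col11a1, which mark bone, cartilage and fibroblast matrix, the short-chain collagens Col8a1 and Col8a2, and Col4a3 and Col4a4. Col9a2 had no read in any PBS library and up to 0.117 FPKM with cisplatin. No call was made on their differences, which rest on few reads.

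The genes that modify, process and bind collagen were described from 7 lists. Of their 92 genes in the table, 69 were tested, of which 31 were downregulated and 5 upregulated, and their median was -0.60 on the log2 scale. Scaled by the Y-linked genes, 47 were called lower and 2 higher. Adamts14, Itga10 and Ctgf passed the filter through the PBS libraries alone and Mrc1 through the cisplatin libraries alone, so these genes had to differ. The lists were chosen with earlier results of these data known, and their counts are set beside the 11.3% and 4.67% of all tested genes.

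Enzymes and chaperones that hydroxylate and fold procollagen in the endoplasmic reticulum were downregulated in 9 of 15 tested genes and upregulated in 0. P4ha2, a catalytic subunit of prolyl 4-hydroxylase, fell from 35.0 ± 0.778 to 1.81 ± 0.0349 FPKM (log2 fold change -3.68). Plod2, a lysyl hydroxylase that acts on the ends of the chains, fell from 49.5 ± 1.52 to 4.28 ± 0.401 FPKM (-3.26). Of the genes for secretion and removal of the propeptides, 2 of 8 were downregulated. Pcolce, an enhancer of procollagen C-proteinase, fell from 105.7 ± 3.67 to 27.3 ± 0.617 FPKM (-1.91), and Adamts14, an N-proteinase, from 1.79 ± 0.373 to 0.328 ± 0.0450 FPKM (-1.06). All 5 tested crosslinking genes were downregulated. Loxl2 fell from 51.6 ± 2.71 to 2.86 ± 0.396 FPKM (-3.77) and Loxl4 from 17.9 ± 0.243 to 3.59 ± 0.296 FPKM (-2.04), both of them lysyl oxidase-like enzymes.

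Among matrix partners, 7 of 9 tested genes were downregulated and 1 was upregulated. Hspg2, which encodes perlecan, the heparan sulfate proteoglycan of basement membranes, fell from 109.5 ± 5.53 to 11.4 ± 1.40 FPKM (log2 fold change -3.16). Thbs1, the matricellular protein thrombospondin-1, rose from 136.4 ± 4.43 to 929.6 ± 4.95 FPKM (2.76). Of the receptors, 2 of 5 were downregulated and 1 was upregulated. The collagen-binding tyrosine kinase Ddr1 fell from 47.0 ± 2.79 to 6.64 ± 0.853 FPKM (-2.66). Mrc1, the macrophage mannose receptor, which takes up collagen, rose from 0.743 ± 0.180 to 11.3 ± 0.443 FPKM (2.82).

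The degradation list was split, with 2 of 11 tested genes downregulated and 2 upregulated. Timp3, a matrix-bound inhibitor of metalloproteinases, fell from 14.2 ± 0.769 to 3.77 ± 0.312 FPKM (log2 fold change -1.67), and the membrane-bound collagenase Mmp14 rose from 11.8 ± 0.435 to 36.9 ± 0.260 FPKM (1.57). Of the 16 tested genes that regulate collagen expression, 4 were downregulated and 1 was upregulated. Ctgf, a matricellular growth factor, fell from 20.3 ± 1.28 to 0.469 ± 0.0413 FPKM (-3.86). The adjusted p of the genes named from these lists was at most 2.40e-04 (all SD, n = 3 each). The medians were -1.13 for hydroxylation and folding, -0.54 for secretion and processing, -1.87 for crosslinking, -1.68 for matrix partners, -0.24 for receptors, 0.50 for degradation and -0.16 for regulation.

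**Figure D4:**
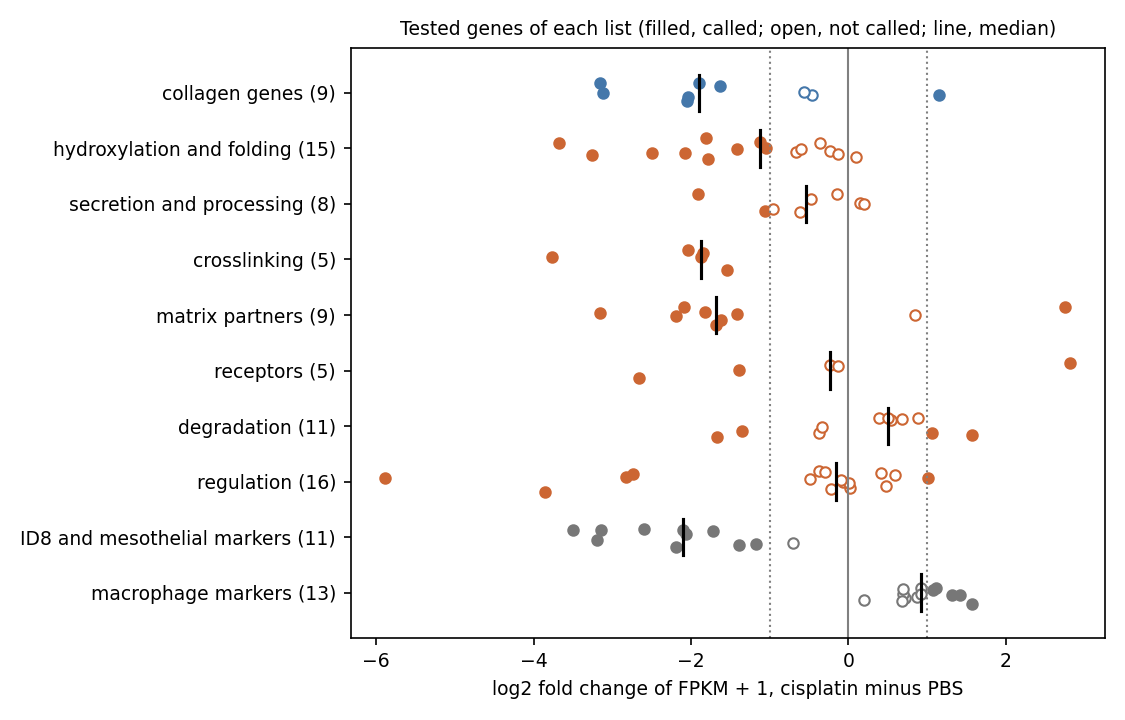
Log2 fold change (FPKM + 1, cisplatin minus PBS) of each tested gene of the collagen list, the 7 pathway lists and 2 marker lists, with the number of tested genes in brackets, filled points called, open points not called, black lines at the medians and vertical scatter without meaning. The medians of the collagen (-1.89), hydroxylation and folding (-1.13), crosslinking (-1.87), matrix partner (-1.68) and ID8 marker (-2.11) lists lie below -1. That of degradation lies at 0.50, and all tested crosslinking genes are called lower.

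Markers of the cells in the co-culture also differed between the groups. Of the 17 ID8 and mesothelial markers, 11 were tested and 10 were downregulated, with log2 fold changes from -3.50 to -0.70. Their summed level was 1189 to 1284 FPKM in the PBS libraries and 221 to 238 FPKM in the cisplatin libraries. Krt19, an epithelial keratin, went from 588 ± 28.8 to 51.1 ± 3.80 FPKM, and Msln, the mesothelial surface protein mesothelin, from 99.9 ± 1.29 to 61.0 ± 2.10 FPKM (log2 fold change -0.70). The log2 fold changes of 6 of the 9 tested collagen genes lay within the range of these markers, and those of Col1a1, Col5a1 and Col5a3 lay above it. This count depends on the scale and on the markers taken in. By voom Col4a6 (-4.27) lay below the lowest of these 11 markers, Gpm6a (-3.53). The voom fit with at least 10 reads took in 13 of the markers. The lowest of those, Muc16 (-4.90, a mean of 23.8 reads), lay below Col4a6. Of the 6 genes, 3 passed the filter through PBS alone. Of the 13 macrophage markers, all tested, 5 were upregulated and 0 downregulated, with fold changes from 0.20 to 1.57 on the log2 scale and a summed level of 1954 to 1977 FPKM with PBS and 4778 to 4945 FPKM with cisplatin. Among all tested genes 4.67% were upregulated. Mertk, among the 5, passed the filter through the cisplatin libraries alone and had to differ. Most of the summed level came from Lyz2, and without it the sum was 801 to 804 FPKM with PBS and 1375 to 1402 FPKM with cisplatin. Adgre1 (F4/80) had a log2 fold change of 0.87 and Csf1r of 0.92. The Y-linked genes summed to 19.5 to 22.7 FPKM with PBS and 41.6 to 42.8 FPKM with cisplatin, with Ddx3y at 1.15, Kdm5d at 0.73, Eif2s3y at 0.68 and Uty at 0.55. The part of these shifts in the collagen values was not tested.

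Markers of other cell types were mixed. Of the 12 fibroblast and marrow stromal markers, 7 were below 1 FPKM in all libraries. Twist1 was listed at 0 throughout, and Pdgfra measured 1.04 ± 0.0808 FPKM with PBS and 0.203 ± 0.0336 FPKM with cisplatin. Thy1 (2.25 and 3.86 FPKM), Pi16 (2.5 and 3.59 FPKM) and Pdgfrb (0.644 and 1.0 FPKM) had higher means with cisplatin. So did Dpt (0.226 and 0.338 FPKM). Fap (0.275 and 0.0709 FPKM), Cxcl12 (0.553 and 0.273 FPKM) and Fbln1 (0.201 and 0.0411 FPKM) had lower means, as Pdgfra did. Prrx1 (0.0761 and 0.0431 FPKM) and Lepr (0.0415 and 0 FPKM) were lower as well. The voom fit with at least 10 reads took in 8 of the 12 and called 2 lower and 1 higher. Their median was -0.19 on the log2 scale. The list summed to 13.7 to 14.7 FPKM with PBS and 32.5 to 34.6 FPKM with cisplatin, of which the contractile gene Acta2, also made by other cells, gave 6.40 and 23.9 FPKM on average. Of the 8 osteolineage markers, 5 were below 1 FPKM in all libraries, with Ibsp and Acan at 0. Sox9, which is not limited to bone and cartilage, fell from 16.4 to 2.33 FPKM and gave most of the PBS sum, and Runx2 averaged 3.92 and 3.67 FPKM. The list summed to 21.4 to 23.4 FPKM with PBS and 6.38 to 8.61 FPKM with cisplatin. Of the 8 endothelial markers, Cldn5 was at 0 and 5 were below 1 FPKM in all libraries, while Pecam1, which macrophages also express, had a log2 fold change of 0.66. Esam was downregulated (-1.57) and Tek measured -0.92 on the same scale. Below 1 FPKM, means went from 0.583 with PBS to 0.971 FPKM with cisplatin for Kdr, from 0.438 to 0.814 FPKM for Tie1 and from 0.152 to 0.305 FPKM for Cdh5. By voom with at least 10 reads, 6 of these markers were fitted, 2 lower and 1 higher, with a median log2 fold change of 0.82. That list summed to 18.5 to 19.4 FPKM with PBS and 16.7 to 17.1 FPKM with cisplatin.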

How the data were processed

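Total RNA was poly-T selected. The authors deposited FPKM per gene for 54532 genes. Per the labels, reads were processed with fastp, HISAT2 2.0.5 and featureCounts 1.5.0-p3 on mm10, whereas the study's methods name LifeScope for alignment and counting. Strand use is not given in the sources used here. All 44 members had the coordinates of GENCODE M21.

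Multiplied by gene length, the deposited FPKM values worth up to 200 reads were whole multiples of a fixed step within 0.05 reads (100% in every library), which gave the reads. Log2(FPKM + 1) was fitted in limma 3.58.1 (R 4.3.3, eBayes with a trend) with the group as the only term and all 6 libraries. The procedure was tested on simulated data. Same-numbered libraries did not deviate together (correlations -0.10, -0.086 and -0.024), so the fit carries no block. Every tested member was named, and the 2 called genes with the largest change in each pathway list. A result that this rule selects is not reported here. Further genes were named with their values in view. The members and lists were chosen with earlier results of these data known. Of the 94 pathway symbols, 92 were matched. Alternatives comprised other pseudocounts, filters, scalings, voom, a replicate block and leaving out each library.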

Additional observations from a re-analysis of the deposited data

How the results depend on the processing

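All 9 tested members kept their direction in each of the 18 other fits that tested them, and of 148 such values 145 stayed on the same side of both thresholds. The exceptions, under scaling by the Y-linked genes, are given with Col5a3, Col5a1 and Col1a1. The 6 lower calls became 11 by voom with a mean of at least 10 reads. Leaving out a library gave 3 to 6, with 3 wherever a PBS library was left out, because Col4a6, Col6a1 and Col16a1 then missed the filter. The 1 higher call became 0 with a filter at 5 FPKM, which removes the gene, 0 with Y-linked scaling and 4 by that voom fit. The pathway calls became 47 lower and 2 higher with Y-linked scaling, and 45 lower and 15 higher by the adjusted p alone. The median of the tested members (-1.89) was -2.20 with a pseudocount of 0.1, -2.58 with a filter at 5 FPKM, -2.17 with TPM rescaling, -2.64 with Y-linked scaling, -2.13 by voom on the filtered genes, -0.77 by voom with at least 10 reads and 0.0057 with no filter, where members near 0 enter. Leaving out a library gave -1.95 to -1.22. Quantile normalisation shifted the median of all genes to 0.10. The log2 ratio of the summed levels (-2.04) was -3.04 with Y-linked scaling and -1.27 without the 3 highest members. With a replicate block, 6 members were lower and 1 higher, all 7 called in both fits. Members under 10 reads are limited by depth.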
